A study of Mus musculus with 2 samples.

Results

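The limbus is the rim between the clear cornea and the conjunctiva, and the basal layer of its epithelium holds the limbal stem cells that renew the corneal epithelium. Described here are 8 genes read as markers of the limbal epithelium, *Wfdc18*, *Dlk2*, *Ccdc3*, *Sox4*, *Lgals7*, *Bcam*, *Edn2* and *Cd63*, out of 20198 genes counted in single cells of the mouse cornea. The genes were chosen by the levels that earlier work on these same counts gave in one deposited cluster of cells, number 9, so their levels across clusters are a description and carry no test. Each gene was read in every deposited cluster and in both libraries.

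The 2 libraries came from male mice aged 6 to 8 weeks, and no strain is named in the sources used here. UW pooled 8 corneas of 4 unwounded mice. W pooled 8 corneas of 4 mice whose central corneal epithelium had been scraped off inside a trephine mark 24 h earlier, and its cells were collected once, at that time. With 1 library per condition, the spread between mice was not measured, and no p-value is given. The intervals printed are 95% intervals and cover counting error only. After the authors' filters the tables held 16450 UW cells (median 22014 UMIs, unique molecular identifiers, which count captured RNA molecules) and 12417 W cells (median 20290 UMIs). The authors report more cells of each library after their filters, so some of those cells may be missing here. The 2 libraries shared 52 cell barcodes, 0.419% of those of W. Levels are given as CPM, counts per 1000000 UMIs of a cluster in a library.

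The 8 genes encode proteins of different kinds. *Wfdc18* encodes a small secreted protein with a whey acidic protein (WAP) domain, a fold shared by several protease inhibitors, and *Lgals7* encodes galectin 7, a sugar-binding protein of stratified epithelia. *Dlk2* encodes a membrane protein with EGF repeats related to the Notch ligands, and *Sox4* a transcription factor of the SoxC group. *Bcam* encodes a cell adhesion molecule that binds laminin of the basement membrane, *Edn2* the precursor of the peptide endothelin 2, *Cd63* a tetraspanin of late endosomes and exosomes, and *Ccdc3* a secreted coiled-coil protein.

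Cluster 9 held 521 UW cells, 3.17% of the library, and 956 W cells, 7.7%. Its median depth was 13944 UMIs in UW and 24009 in W. The label limbal was checked against markers, which gave a mixed picture. Of 21 detected genes on the list of other limbal genes described below, 2 had their highest level in cluster 9 (9.52%), against 11.1% of all detected genes. Among the 10 epithelial clusters, *Gpha2*, a marker of quiescent limbal stem cells, was highest in cluster 9 in both libraries, at 1945 CPM in UW and 1412 in W. *Gpha2* was not limited to epithelium, however. It reached 821 CPM in UW and 4206 in W in cluster 0, whose leading genes include the keratocyte gene *Kera* and which is called stromal-like here. *Krt15*, a keratin often used for the limbus, was at 3740 and 5959 CPM in cluster 9 but highest in cluster 5, at 23160 and 21100. Cluster 5 is called conjunctival-like because *Krt4* and *Krt19* are among its 10 leading genes. *Krt12*, the keratin of differentiated cornea, was at 5086 CPM in cluster 9 of UW, against 29080 in cluster 3, and at 1368 in W, against 11910. Cluster 3 is called basal-like, since the hemidesmosome and basement membrane genes *Itgb4* and *Lamb3* are among its 10 leading genes. The other cell groups compared were cluster 8, led by *Top2a* and *Mki67* and called mitotic-like, and cluster 11, led by the replication genes *Mcm3* and *Uhrf1* and called S phase-like.

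Among the epithelial clusters all 8 genes were highest in cluster 9, in UW as in W. Over all clusters with at least 50 cells this held for 7 of the 8, the exception being *Cd63*. Of all measured genes, 10.6% were highest in cluster 9 among the 12 such clusters of UW and 6.61% among the 16 of W, and these shares are given as background only, because the 8 genes were chosen by these levels. *Wfdc18*, *Dlk2*, *Ccdc3*, *Sox4*, *Edn2* and *Lgals7* are 6 of the 10 genes that lead cluster 9 over both libraries.

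**Figure D1:**
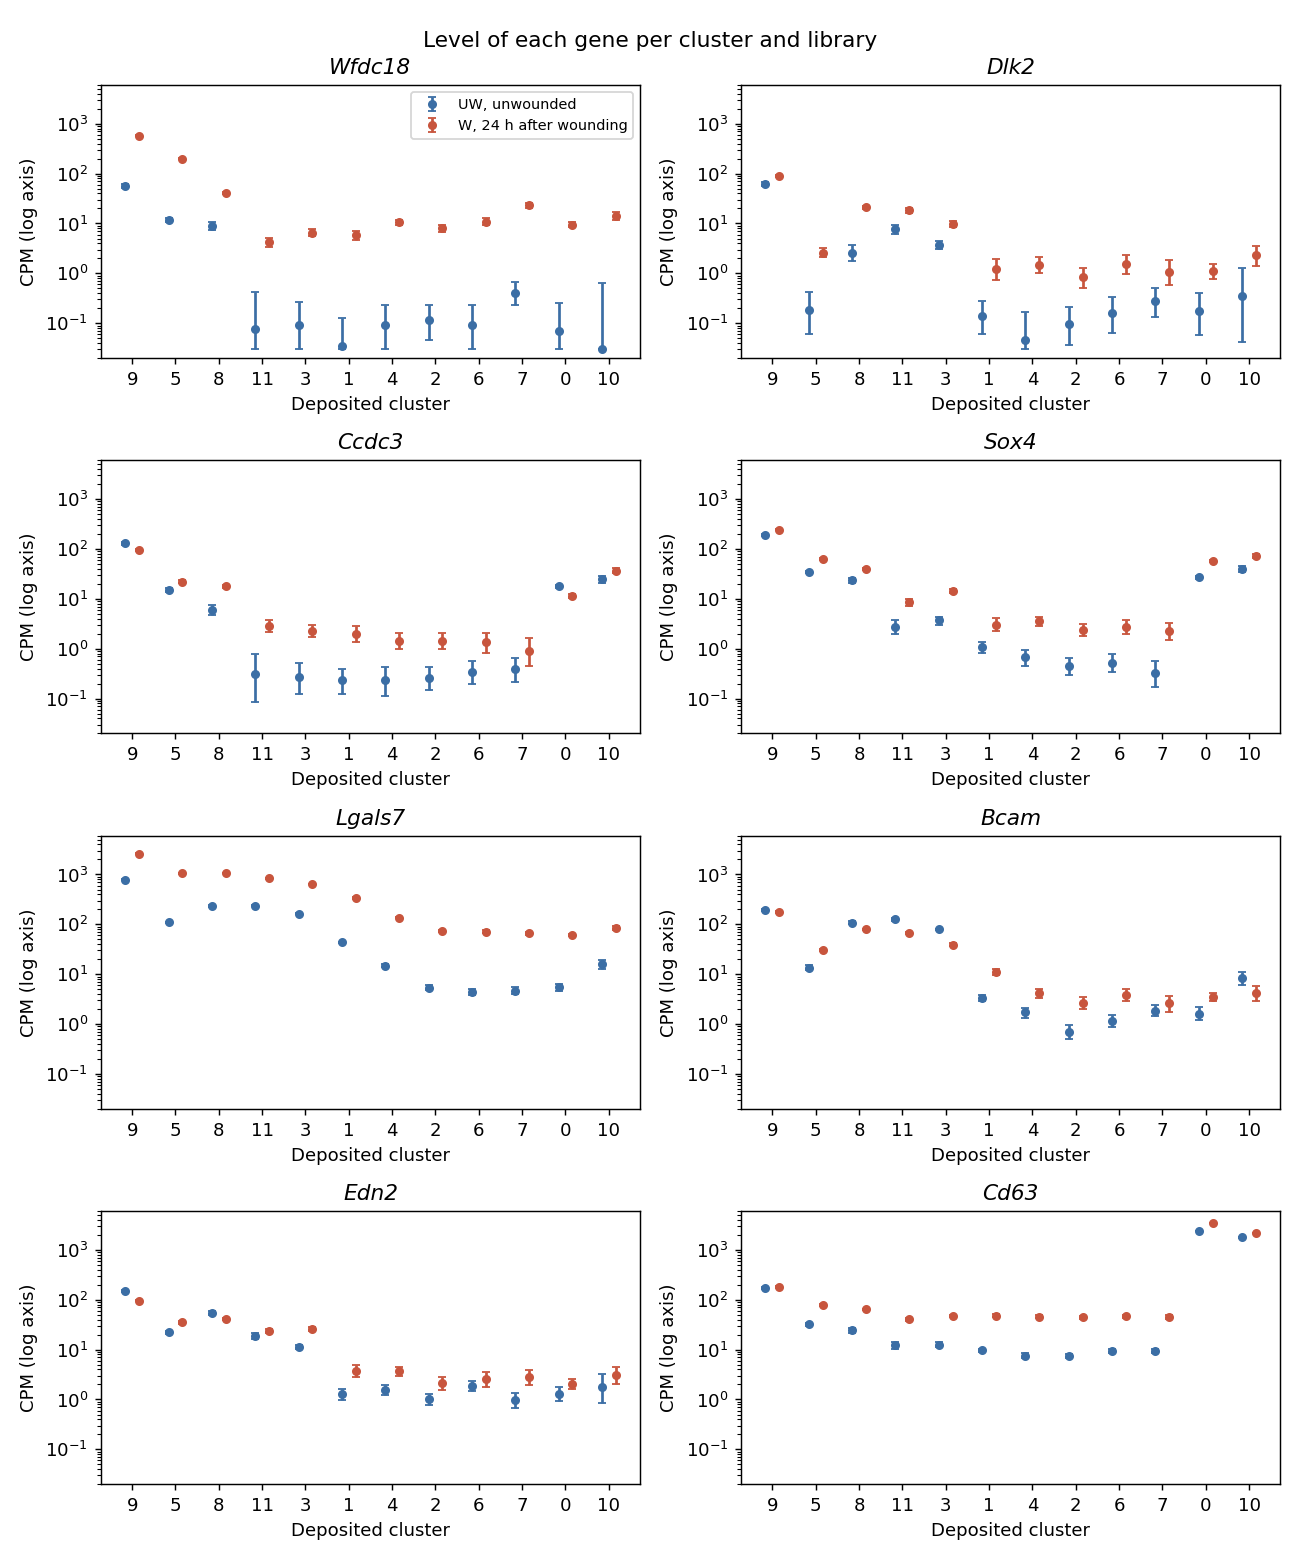
Level of each gene in CPM (log axis) in the 12 clusters with at least 50 cells in both libraries, with UW in blue and W in red. Bars are exact Poisson 95% intervals, and values under 0.03 CPM are drawn at 0.03. Cluster 9 stands at the left of each panel and is the highest point for every gene but *Cd63*, whose levels in the stromal clusters 0 and 10 lie between 1782 and 3505 CPM.

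*Wfdc18* lies on chromosome 11 (GRCm38, chr11:83709015-83711348, plus strand), between *Wfdc17* and *Wfdc21*. None of its 1250 distinct 31-base stretches occurs in a transcript of another gene. In cluster 9 it was at 57.1 CPM in UW (435 UMIs, interval 51.9 to 62.8) and at 580.2 in W (14443 UMIs, 570.8 to 589.7), 10.2-fold higher. The conjunctival-like cluster 5 came next, with 11.8 CPM in UW and 198.6 in W, 16.8-fold higher. The mitotic-like cluster 8 had 8.91 CPM in UW and 41.2 in W. In UW the intervals of clusters 5 and 8 overlapped, and every other cluster was under 0.5 CPM. Cluster 3 of UW, the basal-like cells of the cornea, had 3 *Wfdc18* UMIs in 1789 cells.

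In W the gene was read at a low level in every cluster, including cells that are not epithelial. Stromal-like cluster 0 held 9.37 CPM, and the immune clusters 13 and 14 held 48.5 and 56.7. Free RNA from broken cells can give such counts, and RNA of one source keeps its genes in one ratio in every cell type, so *Wfdc18* was set against *Krt14*, an abundant keratin of basal epithelium. The 6 stromal and immune clusters of W (0, 10, 13, 14, 15 and 16) held between 10.2 and 15.1 *Wfdc18* UMIs per 1000 *Krt14* UMIs, and the whole library held 9.35. Cluster 9 held 49.3 (interval 48.5 to 50.1) and cluster 5 held 20.2 (19.7 to 20.6). Clusters 1, 2, 3, 4 and 11 were all under 1. Cluster 7, where *Krt14* was low, was at 19.6 (17.3 to 22.1). Of its thinned cells 9.16% had a *Wfdc18* UMI (47 of 513), a share within the range of the stromal and immune clusters of W, which went from 3.75% in cluster 0 to 11.7% in cluster 14 (cluster 13 left out, with 7 cells deep enough). Not thinned, 24.4% of its cells had a UMI and 9.28% had 2 or more. The stromal and immune clusters then had at most 18.9% and 3.95%, both in cluster 14, whose median depth was 8724 UMIs against 21232.5 in cluster 7. Cluster 8, whose cells make *Krt14* themselves, was at 3.31, but 41 of its 1332 cells held 10 or more *Wfdc18* UMIs. No more than 2 cells did so in any of clusters 0, 1, 2, 3, 4, 6, 7, 10 and 11 of W, and the part of free RNA in the levels of these clusters was not tested.

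**Figure D2:**
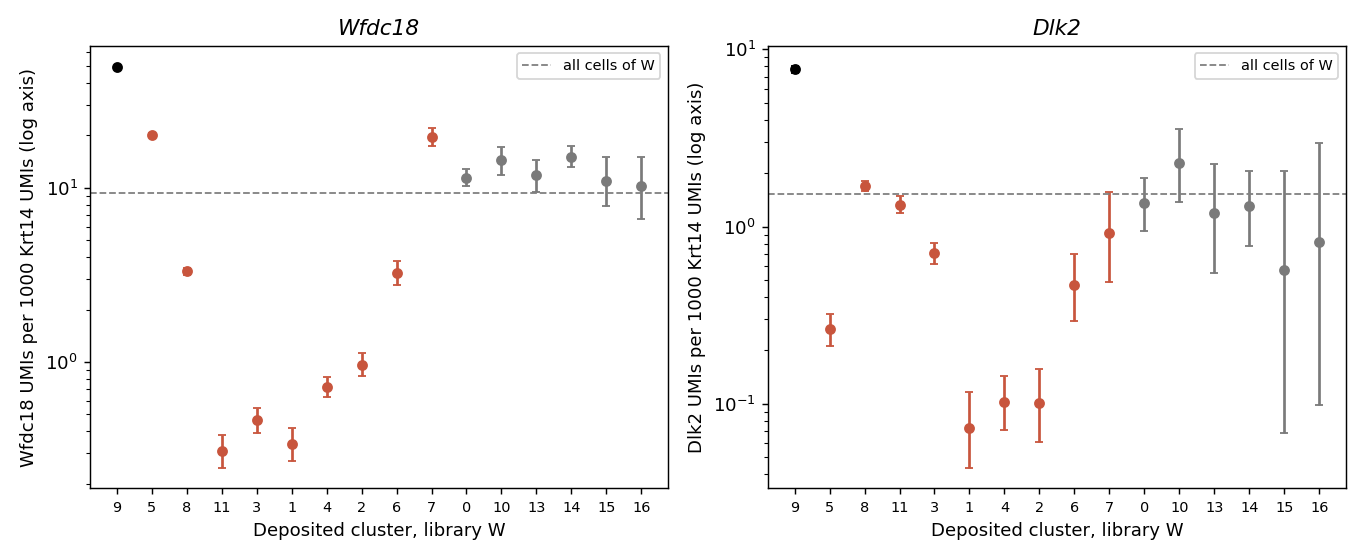
UMIs of *Wfdc18* (left) and *Dlk2* (right) per 1000 UMIs of *Krt14* in each cluster of W (log axes), with exact 95% intervals. Cluster 9 is black, other epithelial clusters are red, stromal and immune clusters are grey, and the dashed line marks the whole library (9.35 and 1.52). The grey points lie close together for *Wfdc18*, below cluster 9 at 49.3.

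The *Wfdc18* signal was uneven between the cells of cluster 9. In UW, 468 of 521 cells had no *Wfdc18* UMI, 12 had 10 or more, and 1 cell held 107. The 52 cells with the most carried 99.8% of its *Wfdc18* UMIs, and the 10 highest cells carried 73.8%. In W, 445 of 956 cells had none, 236 had 10 or more, 41 had 100 or more, and the highest had 354. Depth differed between the libraries, so cells were also thinned to 5000 UMIs each, which left out 16 UW and 6 W cells. Of the thinned cells, 6.93% of UW (35 of 505, 4.87% to 9.51%) and 36.8% of W (350 of 950, 33.8% to 40.0%) had a *Wfdc18* UMI. Without thinning the shares were 10.2% and 53.5%. Stromal-like cluster 0 had 0 of 2318 thinned cells in UW and 3.75% in W, with median depths of 11853 and 17588 UMIs. Other stromal and immune clusters of W were at 5.48% (10), 8.26% (15), 9.72% (16) and 11.7% (14). In conjunctival-like cluster 5 the thinned shares were 3.94% in UW and 26.7% in W. The level in cluster 8 of UW rested on few cells, since 7 of 535 cells had any *Wfdc18* UMI and 1 of them held 79 of the 114.

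**Figure D3:**
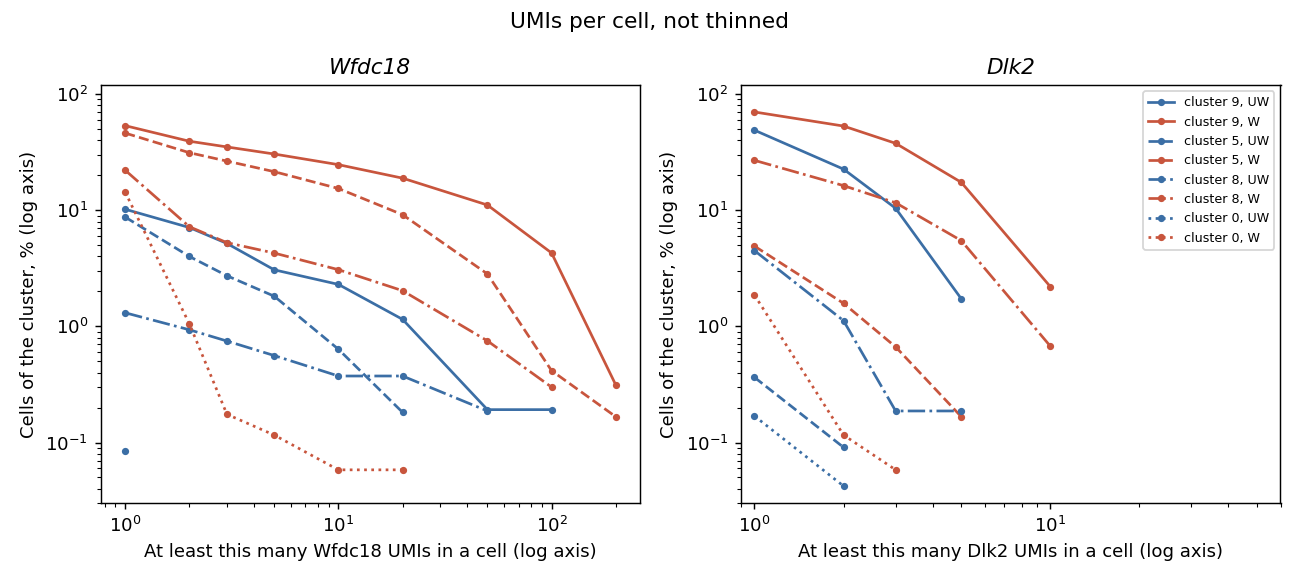
Percentage of cells (log axis) that hold at least a given number of UMIs (log axis) of *Wfdc18* or *Dlk2*, not thinned, in clusters 9, 5, 8 and 0 of UW (blue) and W (red). For *Wfdc18* the curve of cluster 9 of W reaches cells with over 100 UMIs, whereas no cell of cluster 9 held more than 14 UMIs of *Dlk2*.

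*Dlk2* is on chromosome 17 (GRCm38, chr17:46297421-46303271, plus strand), and its last bases overlap *Abcc10* on the other strand. Of the 8 genes it had the steepest step from cluster 9 to the next of all clusters in UW (among epithelial clusters alone that of *Ccdc3* was steeper, at 8.53-fold), with 61.3 CPM (467 UMIs, 55.9 to 67.1) against 7.62 in the S phase-like cluster 11, an 8.05-fold step. In W cluster 9 stood at 90.8 CPM (2259 UMIs, 87.0 to 94.6), 1.48-fold above UW. Clusters 8 and 11 of W followed at 21.1 and 18.3 CPM with overlapping intervals, against 2.58 and 7.62 in UW. Conjunctival-like cluster 5, second for *Wfdc18*, held 0.186 CPM of *Dlk2* in UW and 2.60 in W. The basal-like cluster 3 had 3.72 CPM in UW and 9.88 in W. The W level of cluster 5 lay within the range of the stromal and immune clusters of W, 0.738 to 4.90 CPM. It was above that of cluster 0 (1.11 CPM, 0.777 to 1.54), and 19 of its 1201 cells held 2 or more *Dlk2* UMIs, against 2 of 1719 in cluster 0. Per 1000 *Krt14* UMIs, W held 7.71 *Dlk2* UMIs in cluster 9 (interval 7.39 to 8.04) and 1.35 in stromal-like cluster 0 (0.946 to 1.87).

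*Dlk2* UMIs were spread more evenly than those of *Wfdc18*. Of the thinned cells of cluster 9, 22.4% in UW (113 of 505, 18.8% to 26.3%) and 37.7% in W (358 of 950, 34.6% to 40.9%) had a *Dlk2* UMI, against 0.0863% and 0.585% in cluster 0. The W share overlapped that of *Wfdc18*, and the UW share was higher. These shares depended on depth. Thinned to 2000 UMIs per cell, the *Dlk2* shares of UW and W were 13.0% and 15.5%, the *Wfdc18* shares 4.64% and 30.3%. The 52 UW and 96 W cells with the most *Dlk2* carried 42.0% and 33.9% of its UMIs. The highest cells held 6 and 14 UMIs.

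The stretches just before the transcript starts of *Wfdc18* and *Dlk2* are shown because these are the genes that lead cluster 9. They are the last 120 bases before the start in RefSeq (GRCm38.p6, plus strand, 5′ to 3′), at chr11:83708884-83709003 and, for the downstream one of 2 *Dlk2* starts, at chr17:46297808-46297927. Capitals mark matches on either strand to the TATA box letters TATAAA and to the GC box letters GGGCGG. The letters CCAAT were searched as well.
Wfdc18: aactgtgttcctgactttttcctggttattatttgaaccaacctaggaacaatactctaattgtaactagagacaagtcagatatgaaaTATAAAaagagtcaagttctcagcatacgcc
Dlk2: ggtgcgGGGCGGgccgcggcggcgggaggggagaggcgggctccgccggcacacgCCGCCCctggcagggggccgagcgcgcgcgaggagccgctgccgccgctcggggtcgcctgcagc

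Over the 250 bases before each start, *Wfdc18* held TATAAA once, beginning 31 bases before the start, and 12.4% of 32851 starts in the table held it on either strand. The downstream *Dlk2* start had no TATAAA and held GGGCGG at 2 places, as 32.7% of starts did at 1 place or more. CCAAT (33.8% of starts) was absent from both, and so was TGANTCA (6.75%). The 250 bases of *Wfdc18* were 38.4% G or C with 2 CG steps, and those of the downstream *Dlk2* start 80.8% with 37, where the median start had 52.4% G or C. The upstream *Dlk2* start differed from the downstream one, with 55.6% G or C, 10 CG steps and no TATAAA or GGGCGG. These matches describe letters and say nothing of which factors bind there.

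*Sox4* (chr13:28948919-28953713, minus strand) and *Ccdc3* (chr2:5137776-5230878, plus strand) were alike over clusters, with a Pearson r of 0.964 over 24 points, the 12 clusters in 2 libraries. In cluster 9 *Sox4* was at 192.9 CPM in UW (183.2 to 203.0) and 242.5 in W (236.4 to 248.7), 1.26-fold higher. *Ccdc3* was at 130.1 CPM in UW (122.2 to 138.5) and 96.2 in W (92.4 to 100.1), which is lower in W, at 0.739-fold. After cluster 9, both were highest in cluster 10, whose leading genes include *Penk* and *Myoc*, where *Ccdc3* had 24.9 and 37.0 CPM and *Sox4* 39.9 and 73.2. Stromal-like cluster 0 held 17.7 CPM of *Ccdc3* in UW and 11.4 in W. Its *Sox4* level was 27.3 and 56.3 CPM. Per 1000 *Krt14* UMIs, cluster 0 of W held 68.6 of *Sox4* against 4.96 in the whole library. The ratio of the free RNA itself was not measured. Of thinned cells in cluster 9, *Sox4* was found in 42.4% of UW and 58.7% of W, and *Ccdc3* in 41.6% and 38.8%.

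Both genes overlap other annotated genes on the opposite strand, as do *Lgals7*, which lies wholly within the antisense gene *Gm10648*, and *Bcam*, which overlaps the antisense *Gm26600* and, on its own strand, *Gm45114*. The long noncoding RNA gene *Gm26776* covers nearly the whole of *Ccdc3*, and *Gm26735* overlaps *Sox4*. The processed pseudogene *Gm13198* lies within *Ccdc3* on the same strand. Whether the counting used strand is not given in the sources used here, so it is uncertain to which gene of a pair reads from the shared stretch were assigned. *Gm26735* had counts of its own, 18.1 CPM in UW and 18.6 in W in cluster 9, and was the gene most like *Ccdc3* over clusters (r of 0.973).

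*Lgals7* (chr7:28863853-28866284, plus strand) was counted in most cells of cluster 9. Its level was 792 CPM in UW (772 to 812) and 2630 in W (2610 to 2650), 3.32-fold higher. All 956 W cells had at least 1 *Lgals7* UMI before thinning, and 485 of 521 UW cells did. Unlike *Wfdc18*, it was also present throughout the basal and dividing cells. In UW it was at 237.7 CPM in cluster 11, 232 in cluster 8 and 165.1 in cluster 3, and in W at 832, 1066 and 641. It was 9.68-fold higher in W in conjunctival-like cluster 5, at 109.1 and 1056 CPM. Cluster 0 went from 5.45 to 60.5 CPM and there held 73.6 *Lgals7* UMIs per 1000 *Krt14* UMIs in W, where the whole library held 74.0. The other stromal and immune clusters of W were spread more widely, between 51.5 in cluster 14 and 102.0 in cluster 16. Cluster 9 held 223.

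*Bcam* (chr7:19756131-19771016, minus strand) and *Edn2* (chr4:120161206-120167360, plus strand) were lower in cluster 9 of W. *Bcam* was at 197.5 CPM in UW (187.6 to 207.7) and 176.5 in W (171.3 to 181.8), and *Edn2* at 150.1 (141.5 to 159.0) and 96.4 (92.6 to 100.3). After thinning, *Bcam* was found in 65.9% of UW and 57.3% of W cells of cluster 9, and *Edn2* in 17.4% (14.2% to 21.0%) and 23.4% (20.7% to 26.2%), whose intervals overlapped. The 52 UW and 96 W cells with the most carried 87.4% and 66.8% of the *Edn2* UMIs. The summed *Edn2* level of W was 0.642-fold that of UW. *Bcam* was also high in the dividing and basal cells. Cluster 11 held 125.4 CPM in UW and 66.7 in W, and cluster 3 held 79.1 and 39.2.

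*Cd63* (chr10:128900989-128912822, plus strand) was not highest in cluster 9 once all cell types were compared. Stromal-like cluster 0 had 2367 CPM in UW and 3505 in W, and cluster 10 had 1782 and 2184. Clusters 13, 14 and 15 of W, led by immune genes such as *Ccl3*, *H2-Aa* and *Lyz2*, held 800.3, 451.3 and 559.4 CPM. In cluster 9 the level was 174.2 CPM in UW and 179.1 in W, with overlapping intervals, a log2 difference of 0.04 (interval -0.05 to 0.13). The other 9 epithelial clusters had at most 32.3 CPM in UW and 78.8 in W. All of the 2318 thinned UW cells of cluster 0 and 57.0% of the 505 of cluster 9 had a *Cd63* UMI. Part of the *Cd63* count is uncertain, since 15.9% of its 31-base stretches occur in transcripts of other genes, mostly the pseudogene *Cd63-ps*.

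The ratios of W to UW were then set beside those of all genes. In cluster 9, 2 of the 8 genes, *Wfdc18* and *Lgals7*, were at least 2-fold higher in W, and none was 2-fold lower. Of all 8004 genes with at least 20 UMIs and 10 CPM in a library, 6.65% were at least 2-fold higher and 7.01% at least 2-fold lower. The median log2 ratio was 0.19 over the 8 genes and -0.04 over all. In mitotic-like cluster 8, 5 of the 8 were at least 2-fold higher (*Wfdc18*, *Dlk2*, *Ccdc3*, *Lgals7* and *Cd63*), against 6.27% of its measured genes, with 7.99% lower. Of these 5, *Wfdc18* (8.91 and 41.2 CPM), *Dlk2* (2.58 and 21.1) and *Ccdc3* (6.10 and 18.1) reached 10 CPM in W alone, so the limit favoured higher values for them, and nothing is read from the count. In conjunctival-like cluster 5, where 7 of the 8 passed the limit on counts, 4 were at least 2-fold higher (*Wfdc18*, *Lgals7*, *Bcam* and *Cd63*), against 6.05%, with 6.52% lower.

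Fewer genes passed the limit in the corneal clusters. In basal-like cluster 3, 5 of the 8 did. *Sox4*, *Lgals7*, *Edn2* and *Cd63* were at least 2-fold higher and *Bcam* 2-fold lower, where 10.4% of all measured genes were higher and 9.6% lower. *Sox4* reached 10 CPM there in W alone (3.69 and 14.4 CPM). In S phase-like cluster 11, *Dlk2*, *Lgals7* and *Cd63* were at least 2-fold higher of 5 that passed, where 8.99% of genes were higher and 7.97% lower, and *Dlk2* reached 10 CPM in W alone (7.62 and 18.3). *Cd63* was between 40.3 and 47.8 CPM in clusters 1, 2, 3, 4, 6, 7 and 11 of W, against 7.43 to 12.6 in UW, a like low level in clusters of different kinds, and the part of free RNA in the higher values was not tested. *Bcam* was lower in W in clusters 3, 8 and 11.

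**Figure D4:**
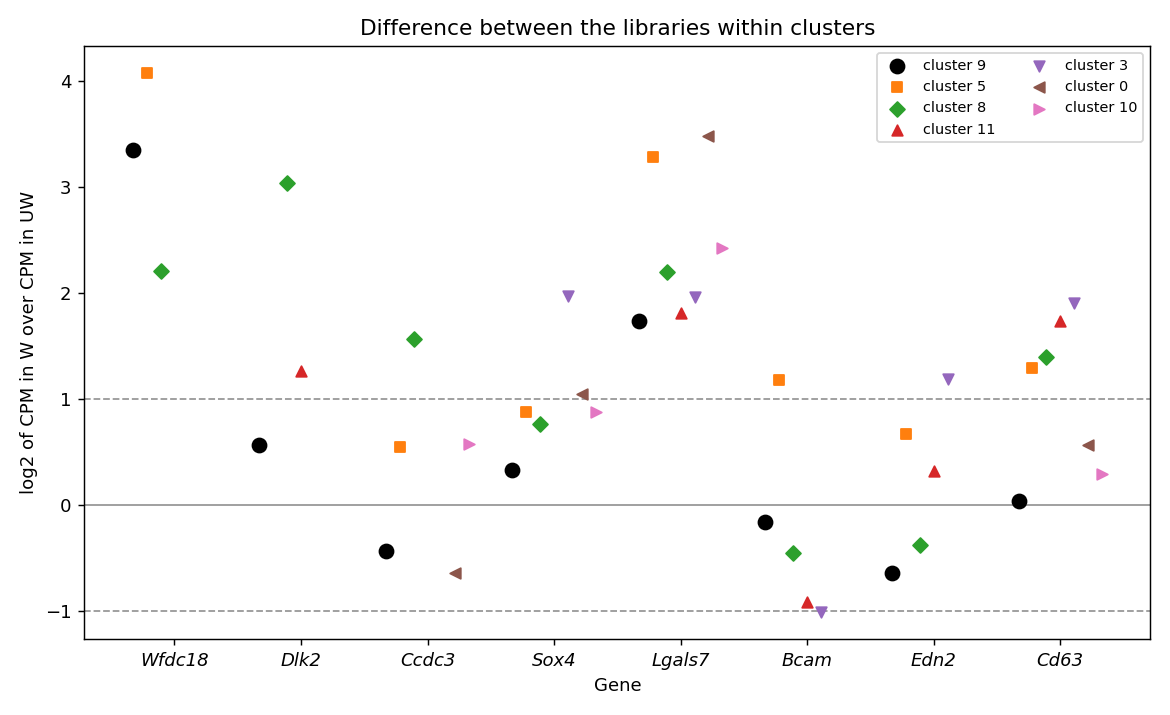
Log2 of the CPM in W over that in UW for each gene in clusters 9, 5, 8, 11, 3, 0 and 10. A point is drawn where the gene passed 20 UMIs and 10 CPM in a library and had more than 3 UMIs in UW, and the other clusters are not shown. Cluster 9 is black, and dashed lines mark 2-fold. In cluster 9 *Wfdc18* stands at 3.34 and *Lgals7* at 1.73, and the other 6 genes lie between -0.64 and 0.57.

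Over all cells of a library, *Wfdc18* was at 2.47 CPM in UW and 88.4 in W, 35.9-fold higher. Cluster 9 held 48.1% of its UMIs in UW and 56.4% in W, while holding 2.07% and 8.6% of all UMIs. Conjunctival-like cluster 5 held 35.1% and 28.1%. *Dlk2* was at 2.09 and 14.4 CPM, 6.89-fold higher (log2 ratio 2.78, but 2.04 as a mean over cells), with 61.0% and 54.3% of its UMIs in cluster 9. In UW a further 15.9% of *Dlk2* came from basal-like cluster 3, and in W 24.7% from mitotic-like cluster 8. Such totals join the level within a cluster with the share of cells captured from it. Taking the UW level in each cluster and the W shares of UMIs, the library would have held 9.21 CPM of *Wfdc18*, and with the W levels and the UW shares 36.7. For *Dlk2* these values were 6.72 and 5.26 CPM, and for *Bcam* 52.9 and 18.2, against 21.8 measured in UW and 42.1 in W. In the first value of each pair, clusters with fewer than 50 UW cells entered with their W level. Whether dissociation recovered each kind of cell alike in both libraries was not tested. For all 8 genes the library totals were higher in W, by 1.93-fold (*Bcam*) to 35.9-fold (*Wfdc18*). Scaling by TMM or size factors lowers these log2 ratios by 0.19 or 0.20.

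Within cluster 9 of W, thinned cells with a *Wfdc18* UMI were set beside those without. *Sox4* was found in 71.4% of the 350 cells with *Wfdc18* (66.4% to 76.1%) and in 51.3% of the 600 without (47.3% to 55.4%). *Edn2* was found in 30.0% and 19.5%, *Cd63* in 68.9% and 54.5%, and *Itgb4*, the integrin subunit of hemidesmosomes, in 59.4% and 47.0%, in each case with separate intervals. *Dlk2* was found in 38.9% (33.7% to 44.2%) and 37.0% (33.1% to 41.0%), so these pairs of intervals overlapped, and so did those of *Mki67*, a gene of cycling cells, at 15.4% and 15.8%. The conjunctival keratin genes *Krt19* (27.4% and 14.7%) and *Krt4* (67.4% and 55.8%) were also found more often with *Wfdc18*. Nothing is read here from *Krt13* and *Krt17*, also conjunctival markers. Over all thinned cells of W, *Krt19* was found in 71.7% of cluster 5, 25.4% of cluster 3 and 14.9% of cluster 0. The summed level of *Krt15* was 8273 CPM in cells with *Wfdc18* and 4931 in cells without, and that of *Krt14* 9815 and 12640. *Gpha2* was at 1456 CPM (1429 to 1483) and 1392 (1375 to 1410). Cells with *Wfdc18* were shallower before thinning, with a median of 19934 UMIs against 27665.

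**Figure D5:**
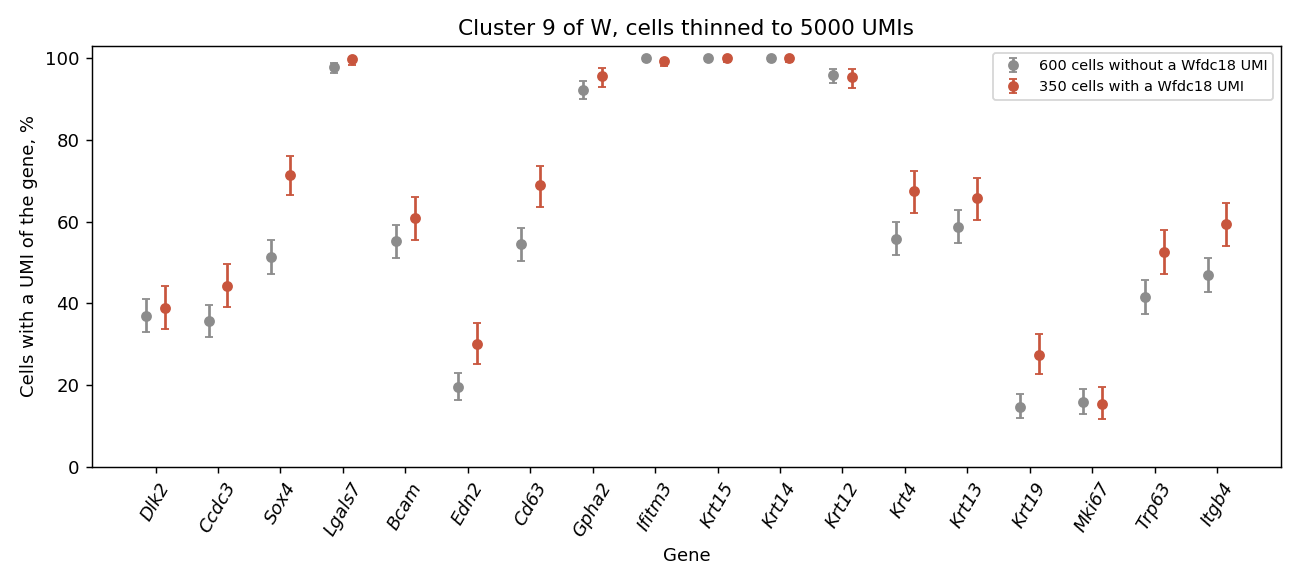
Percentage of thinned cells of cluster 9 of W that had a UMI of each gene, for 350 cells with a *Wfdc18* UMI (red) and 600 without (grey). Bars are exact Clopper-Pearson 95% intervals. *Sox4* (71.4% and 51.3%) and *Krt19* (27.4% and 14.7%) lie apart, and *Dlk2* (38.9% and 37.0%) does not.

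Cells with *Dlk2* differed in other genes. In cluster 9 of W, *Gpha2* was at 1761 CPM in cells with a *Dlk2* UMI and 1229 in cells without, and in UW at 2510 and 1805. *Mki67* was found in 10.1% (7.14% to 13.6%) of W cells with *Dlk2* and in 19.1% (16.0% to 22.5%) of those without, and in 0 of 113 UW cells with *Dlk2*, for which the exact interval reaches 3.21%, and 7.14% of the 392 without. *Bcam* was found in 63.4% and 53.5% of W cells. *Wfdc18* was found in 38.0% of W cells with *Dlk2* and in 36.1% of those without. *Krt19* was found in 16.8% and 20.9%, with overlapping intervals.

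The same split in conjunctival-like cluster 5 of W gave *Sox4* in 45.7% of the 313 cells with *Wfdc18* (40.1% to 51.4%) and 12.3% of the 860 without (10.2% to 14.7%). *Ccdc3* was found in 23.3% and 8.49%, and *Lgals7* in 88.2% and 61.4%. *Krt4* (92.0% and 90.5%) and *Krt19* (69.3% and 72.6%) had overlapping intervals. In UW, *Sox4* was in 42.9% of the 42 cells of cluster 5 with *Wfdc18* and 11.6% of the 1024 without. In mitotic-like cluster 8 of W, 6.47% of thinned cells had a *Wfdc18* UMI (5.2% to 7.94%), within the range of the stromal and immune clusters, so cells with and without it were not compared there.

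Cluster 9 differed between the libraries in genes of other cell types, and several of these differences were also seen in other clusters. Suprabasal markers were at 5325 CPM in sum in UW and 1455 in W, with 0 of 3 higher in W, and superficial markers at 1728 and 279.8, with 0 of 4 higher. All 4 conjunctival keratins of the marker list were higher in W, with a summed level of 1672 CPM in UW and 2414 in W, and *Krt19* went from 9.72 to 49.3 CPM. Neutrophil markers went from 16.8 to 351.9 CPM in sum. That sum was nearly all *S100a8* and *S100a9*, while *Csf3r* and *Retnlg* were at 0 in UW and at 0.442 and 0.161 CPM in W. The 4 mitotic markers went from 55.5 to 156.7 CPM in sum and the 4 S phase markers from 119.0 to 263.4. Stromal markers were at 338.9 CPM in UW and 282.2 in W. Suprabasal and superficial sums were also lower, and conjunctival and neutrophil sums higher, in W in clusters 5, 8, 3, 11 and 0. Conjunctival sums were 386.0 and 1311 CPM in cluster 8 and 151.9 and 299.7 in stromal-like cluster 0. Neutrophil sums were 6.69 and 780.5 CPM in cluster 11. The part of any of these in the ratios of the 8 genes was not tested.

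Genes whose pattern over the 24 points was most like each gene were ranked among 10760 measured genes, as a description without a test. Points of one library share its depth and its free RNA. For *Wfdc18* they were *Esp6* (r of 0.904), *Casp4* (0.901), the surfactant protein gene *Sftpd* (0.891), *Apobec3* (0.867) and *Aadac* (0.867). For *Dlk2* they were the Wnt ligand gene *Wnt10a* (0.929), *Celf4* (0.926), *Slc16a10* (0.91), the matrilin gene *Matn2* (0.896) and *Ntf5* (0.89). No gene was among the 5 of both. The r between *Wfdc18* and *Dlk2* was 0.631. *Sox4* was most like *Ccdc3* and *Csrp2* (0.963), *Lgals7* most like *Wfdc2* (0.966) and *Car13* (0.957), and *Bcam* most like *Large2* (0.979) and *Wnt10a* (0.966). *Edn2* was most like the growth factor receptor gene *Fgfr3* (0.934) and *Bcam* (0.93). *Cd63* was most like *Ctsz* (0.986) and *Cyba* (0.983).

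Relatives and partners of the genes were followed in cluster 9 as lists. Of all genes measured there, 6.65% were at least 2-fold higher in W and 7.01% at least 2-fold lower. A gene that reached 10 CPM in 1 library alone was favoured by that limit to count as higher there. This holds for *Slpi*, *Lgals3bp* and *Timp1*, through W, and for *Lfng* and *Lamb1*, through UW, so nothing is read from their calls. Of the WAP family, 11 of 20 genes were in the table and 3 were measured in the cluster. The chosen *Wfdc18* and *Slpi*, an inhibitor of neutrophil elastase, were at least 2-fold higher in W, the latter at 3.94 and 15.7 CPM, and *Wfdc2* was at 574 and 891. Of the 11 measured genes of the Notch list none was 2-fold higher and 1, the glycosyltransferase gene *Lfng*, named for its value, was at least 2-fold lower (17.3 and 5.91 CPM). The receptor *Notch1* was at 221.0 and 124.4 CPM, its target *Hes1* at 929 and 526, the ligand *Jag2* at 127.6 and 75.3, and *Jag1* at 82.2 and 69.2. The median log2 ratio of this list was -0.62, against -0.04 for all genes. *Dlk1*, the close relative of *Dlk2*, had 2 UMIs in cluster 9 of UW and 1 in W and was counted in stromal-like cluster 0 at 22.1 and 5.55 CPM.

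Of the endothelin list, *Edn2*, *Edn1* and the converting enzyme gene *Ece1* were measured in cluster 9. *Edn1* was at 16.4 CPM in UW and 35.6 in W, opposite to *Edn2*, and *Ece1* at 123.8 and 95.9. The receptor genes were found in the stroma. *Ednra* was at 38.9 and 41.1 CPM in cluster 0 and at 2.23 and 2.65 in cluster 9. *Ednrb* was at 127.3 and 49.3 CPM in cluster 0 and at 1.31 and 0.562 in cluster 9. The galectin list also held *Lgals3bp*, which encodes a binding partner of galectin 3 and not a galectin. Of its 5 measured genes 3 were at least 2-fold higher in W, the chosen *Lgals7*, *Lgals1* (14.7 and 49.8 CPM) and *Lgals3bp* (6.43 and 20.5), while *Lgals3* was at 411.5 and 641.1 CPM and *Lgals8* at 22.2 and 24.6.

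For *Sox4*, 6 genes of the Sox list were measured. *Sox9* was at 436 and 267 CPM, *Sox15* at 38.2 and 48.9 and *Sox6* at 25.7 and 12.8. *Sox6* was past the 2-fold limit (log2 ratio -1.01), and *Sox12*, at 12.2 and 6.11 CPM, lay almost on it. *Sox11*, like *Sox12* a SoxC gene, had 6 and 18 UMIs in cluster 9, and 18 of the 4765 distinct 31-base stretches of *Sox4* transcripts occur in it. Of the 13 measured genes on the list of *Bcam* and its laminin and integrin partners none was 2-fold higher and 1, *Lamb1*, also named for its value, at least 2-fold lower (23.8 and 4.86 CPM). *Itga6* was at 482 and 344 CPM, *Itgb1* at 246.1 and 135.7, *Itgb4* at 173.7 and 146.9, *Dag1* at 127.1 and 84.4, and the laminin chain gene *Lama5* at 20.2 and 15.3. On the list of tetraspanins, which also held *Timp1*, 1 of 10 measured genes, *Timp1* itself, was at least 2-fold higher. *Cd9* was at 1380 and 1156 CPM, *Cd81* at 231.5 and 216.3, *Cd151* at 68.9 and 77.9, and *Tspan3* at 52.4 and 51.9. The protein of *Timp1* binds CD63, and its level went from 6 UMIs (0.788 CPM) to 341 (13.7 CPM) in cluster 9, and from 0.211 to 517.1 CPM in cluster 0.

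Of 17 measured genes on the list of other limbal genes, 2 were at least 2-fold higher in W, against 6.65% of all genes, *Ifitm3* (981 and 2215 CPM) and *Igfbp3* (37.0 and 99.9). The 3 that were at least 2-fold lower, against 7.01% of all genes, were *Socs3* (453.5 and 139.0), *Igfbp5* (133.3 and 56.4) and *Txnip* (519.7 and 172.3), and *Igfbp3*, *Igfbp5* and *Txnip* are named for these values. The basal keratin gene *Krt14* was at 6197 and 11770 CPM, *Gpha2* at 1945 and 1412, *Apoe* at 2522 and 1459, *Trp63*, a transcription factor of basal epithelia, at 171.9 and 130.1, *Col17a1*, a hemidesmosome collagen, at 792 and 543 and *Atf3*, a stress-induced transcription factor, at 1902 and 1151.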

How the data were processed

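The authors dissociated the corneas, made droplet libraries and used Cell Ranger 3.1.0 to count the UMIs of each gene in each cell. The methods name an mm10 reference and the V2 kit, the labels mm9 and the v3 kit. Whether counting used strand is not given in the sources used here. The counts were deposited without normalization, with the authors' Seurat cluster numbers per cell, after their filters on genes (501 to 7570 per deposited cell), mitochondrial UMIs (at most 9.994%) and doublets. No doublet caller was run again. The deposited table still marks 305 UW and 164 W cells as doublets of a first run, which were kept here and left out in an alternative.

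UMIs were summed per cluster and library with Python 3.11.15 and divided by the sum's total, with exact Poisson intervals for levels and Clopper-Pearson intervals for shares. PCR was corrected by UMIs, and intervals cover counting error only. Ratios of W to UW used clusters with 50 or more cells in both libraries and genes with 20 UMIs and 10 CPM in a library, with a fold of 2. Likeness was Pearson's r of log2(CPM + 1). Cells were thinned to 5000 UMIs. Factors for scaling came from edgeR 4.0.16 (TMM) and DESeq2 1.42.0 (size factors) in R 4.3.3, with no test, since each condition had 1 library. The calculations were tested on simulated data. The 8 genes, the lists and the marker genes were chosen with earlier results of these data known. Genes named beside the 8 were the 5 most like *Wfdc18* and *Dlk2*, the 2 most like each other gene, up to 5 per list with the highest CPM in cluster 9, and fixed receptors and markers. In addition *Lfng*, *Lamb1*, *Igfbp3*, *Igfbp5* and *Txnip* were named for their values, and *Dlk1* as a relative of *Dlk2*.

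Gene positions are from GENCODE on GRCm38, and promoter sequences from RefSeq on GRCm38.p6. Protein sequences were not used here.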

Additional observations from a re-analysis of the deposited data

Results flagged for a closer look

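For 3 of the 8 genes the difference between W and UW went one way in cluster 9 and the other way elsewhere, in clusters where the gene passed the limits on counts. With 1 library per condition these differences between clusters were not tested. *Ccdc3* had a log2 ratio of -0.44 in cluster 9 and 1.57 in mitotic-like cluster 8, a gap of 2.0, and was higher in W in 3 clusters. It passed the limits in cluster 8 through W alone (6.10 and 18.1 CPM), which favours a higher value there. *Bcam* had -0.16 in cluster 9 and 1.72 in cluster 1, a gap of 1.88, and was higher in W in 2 clusters. In cluster 1 it too passed through W alone (3.39 and 11.1 CPM). *Edn2* had -0.64 in cluster 9 and 1.18 in basal-like cluster 3, a gap of 1.82, and was higher in W in 3 clusters.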

How the results depend on the processing

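None of the values recomputed changed sign, and of the main ones 40 moved by less than their counting interval (counts of genes by less than 1.5 times) and 34 by more. Summing with a stricter filter on cells (1000 or more genes, mitochondrial UMIs not above 5%) gave *Wfdc18* in cluster 9 68.5 CPM in UW and 569.3 in W, a log2 ratio of 3.06, and *Dlk2* over all cells a log2 ratio of 3.01. The mean over cells in place of the sum gave *Wfdc18* 779.6 CPM in W and a log2 ratio of 3.78, and *Dlk2* 100.2 CPM in W. Over all cells the log2 ratios were 5.16 for *Wfdc18* and 2.78 for *Dlk2*. With TMM they were 4.97 and 2.59, with size factors 4.96 and 2.58, and as a mean over cells 4.98 and 2.04. Shares of cells depended on depth. Thinned to 2000 UMIs, *Wfdc18* was in 4.64% of UW and 30.3% of W cells of cluster 9 and *Dlk2* in 13.0% and 15.5%. At 10000 UMIs *Wfdc18* was in 42.7% of W cells and *Dlk2* in 39.8% and 52.4%. Not thinned, the shares were 10.2% and 53.5% for *Wfdc18* and 48.9% and 70.2% for *Dlk2*. Without a filter on low counts 1288 genes of cluster 9 were at least 2-fold higher and 2231 lower, against 532 and 561. Of the 5 genes most like *Wfdc18*, 2 stayed with a pseudocount of 10 CPM, 2 in UW alone, 2 in W alone and 3 with Spearman's rho. For *Dlk2* these counts were 3, 2, 2 and 1. The cause of these shifts was not tested. No paired analysis was possible because each condition had 1 library, and no replicate could be left out.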
